A study of Mus musculus with 18 samples.

Results

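The nuclear genes of respiratory complexes I and III were examined in cultured mouse kidney tubular cells stimulated with the cytokine TWEAK. The members were all genes in the count files whose current mouse symbol begins with Nduf or Uqcr, pseudogenes left out, which gave 57 of the 36528 genes: 49 Nduf genes and 8 Uqcr genes. Of these, 54 passed the filter on low counts (above 10 reads in 4 or more samples). The other members, Ndufa4l2, Ndufb4b and Ndufb4c, had between 0 and 3 reads in any sample, and 5 Nduf or Uqcr pseudogenes were not counted as members.

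Primary murine renal proximal tubular epithelial cells (RPTEC, strain C57BL/6, from a vendor) were given vehicle (DMSO), TWEAK at 100 ng/mL with vehicle, or TWEAK at 100 ng/mL with 3 μM NIK SMI1, a small molecule inhibitor of the NF-κB inducing kinase NIK. RNA was taken at 6 h and 24 h, with 3 samples in each of the 6 groups and 18 in all. No group received NIK SMI1 alone, so an action of the compound on unstimulated cells cannot be told apart from an action on the TWEAK response. The labels do not say whether the 3 samples of a group came from separate cultures or animals, and p-values therefore measure the spread between these samples, which may be technical. Replicate numbers below follow the order of deposition and pair nothing.

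Complex I (NADH:ubiquinone oxidoreductase) takes electrons from NADH through a flavin and a chain of iron-sulfur clusters to ubiquinone, and complex III (ubiquinol:cytochrome c oxidoreductase) passes them from ubiquinol to cytochrome c. Both pump protons across the inner mitochondrial membrane. Their subunits are encoded partly in the nucleus, among them the Nduf and Uqcr genes, and partly in mitochondrial DNA (mt-Nd1 to mt-Nd6 for complex I, mt-Cytb for complex III). Proximal tubules of the kidney are known for dense mitochondria and a high demand for oxidative phosphorylation.

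The samples held 18040966 to 51956444 counted reads (median 35374254), and 3 reads correspond to 0.0577 to 0.166 CPM (reads of a gene scaled to a common library total). Genes of the TWEAK response separated the groups as labelled: 6 of 7 listed genes rose at 6 h, where the adhesion molecule gene Vcam1 went from 4.16 ± 0.133 CPM in vehicle to 77.4 ± 5.14 with TWEAK and 12.7 ± 1.36 with NIK SMI1 added (SD, n = 3 each, library sizes scaled by TMM). A list of 7 general tubular epithelial genes (Cdh1, Epcam, Krt8, Krt18 and others) summed to 7244 to 9143 CPM per sample, with all 7 above 1 CPM. The 9 proximal tubule markers summed to 10.8 to 14.8 CPM, with 3 of 9 at a median above 1 CPM: the glucose transporter gene Slc5a2 (5.83 to 8.52 CPM), the endocytic receptor gene Cubn (1.93 to 4.64) and Ggt1 (0.325 to 2.11). Slc34a1 and Slc22a6 had a median of 0, so the proximal label rests on a few markers at low levels here. The summed leukocyte list lay at 11.4 to 14.5 CPM and the fibroblast list at 9.74 to 14.1 CPM in every group. Pancreatic islet transcripts (6 genes) summed to 11.57 to 23.9 CPM in every library at 6 h and in vehicle at 24 h. At 24 h they summed to 11.2, 0.214 and 3.47 CPM in TWEAK replicates 1, 2 and 3 and to at most 0.065 CPM with NIK SMI1. The part of these reads in any result was not tested. Results at 24 h are also given without TWEAK replicates 1 and 3, which leaves 1 TWEAK library that is assumed to vary like the other groups, and which still compares it with vehicle libraries that hold islet transcripts.

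The members differed widely in transcript level and little between groups. On the deposited RPKM scale, which divides by transcript length and library size, the mean over 18 samples ranged from 2.12 for Ndufb4 to 243.6 for Uqcrq, with a median of 48.6 over the 54 members. The 8 Uqcr genes of complex III had a median of 86.9 RPKM, the 7 core subunits of complex I 52.6, the 30 accessory subunits 48.6, and the 8 Ndufaf assembly factors, which help build the complex but do not stay in it, 10.4. Within complex III, Uqcrq at 243.6 RPKM stood above the core proteins Uqcrc1 (111 RPKM) and Uqcrc2 (89.1 RPKM) and the Rieske iron-sulfur protein Uqcrfs1 (84.7 RPKM), while Uqcrb was listed at 8.88 RPKM. Within complex I, the accessory subunits Ndufb9 (182 RPKM) and Ndufb1 (156 RPKM) were the highest. Ndufa4, named as a complex I subunit but known as a component of complex IV, was at 65.8 RPKM, and its hypoxia-inducible relative Ndufa4l2 was at 0 to 2 reads per library.

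**Figure D1:**
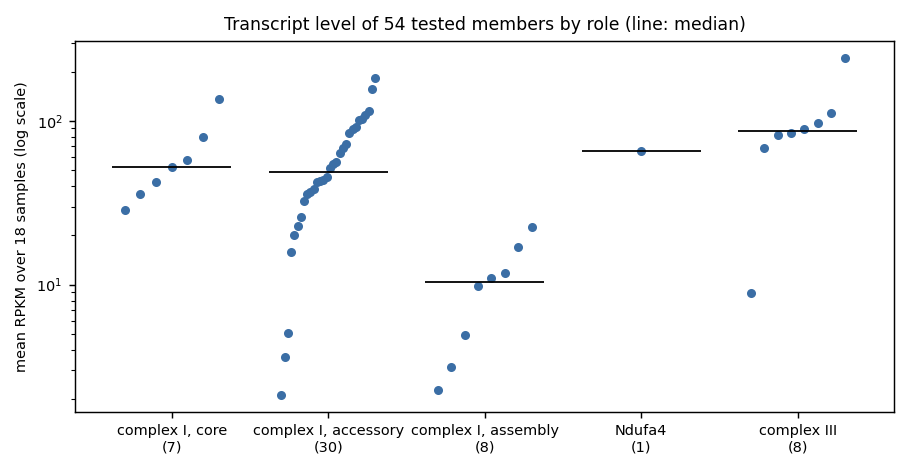
Mean RPKM over 18 samples (log axis) for each of the 54 tested members, one point per gene, grouped by role with the number of genes in parentheses and the median as a line. The assembly factors sit lowest (median 10.4) and the complex III genes highest (median 86.9).

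Only uniquely aligned reads were counted, which can lower the values of members that share sequence with other genes. Of all 50-base stretches of the coding transcripts in the GENCODE annotation, 43.4% for Uqcrb, 39.7% for Ndufs3, 36.98% for Ndufb4 and 21.7% for Ndufs5, among others, also occur in transcripts of other genes. For Ndufb4 they occur in 3 other genes, and the copy Ndufb4c, which had at most 3 reads per library, holds all of them. Ndufb4 itself had 14 to 53 reads per library and Ndufs5 28 to 99, and these levels are uncertain.

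Between groups the members differed, at the median, by less than the tested genes as a whole. The ratio of the highest to the lowest of the 6 group means, in CPM on TMM-scaled library sizes, had a median of 1.12 over the 54 members (1.06 for Ndufa4 to 1.58 for Ndufb4) and 1.28 over the 15521 genes tested. Among genes with a mean of at least 10 CPM the medians were 1.11 for 48 members and 1.19 for 9655 genes, and no member of this level exceeded 1.29 (Ndufa5, a peripheral-arm accessory subunit). The SD of replicates on the log2 scale had a median of 0.070 over the members.

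The summed level showed the same flatness. The 54 members together held 3155, 3203 and 2989 TMM-scaled CPM in vehicle at 6 h and 3068, 3075 and 3207 with TWEAK. With NIK SMI1 added at 6 h they held 3203, 3312 and 3069, so all 3 groups overlapped at this time. At 24 h the sums were 3069, 3087 and 3188 in vehicle, 3226, 3211 and 3190 with TWEAK, and 3259, 3172 and 3235 with NIK SMI1. On this scale the TWEAK samples at 24 h lay just above the vehicle samples, with a ratio of group means of 1.03. They overlapped those with NIK SMI1. Without TMM, TWEAK and vehicle overlapped at 24 h. The sums in CPM on library totals were 3143, 3157 and 3271 in vehicle and 3295, 3309 and 3259 with TWEAK. Sums in RPKM overlapped as well.

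With TWEAK at 6 h almost no member passed the adjusted test. With edgeR's quasi-likelihood test, Benjamini-Hochberg adjusted over the 15521 genes and called at an adjusted p under 0.05, 1 of 54 members was called higher and 0 lower (with unadjusted p under 0.05, 2 were higher and 8 lower, and DESeq2 called 1 and 0). Among all tested genes 11.7% were called higher and 12.0% lower. The member called was Ndufb6, an accessory subunit of the membrane arm. Its TMM-scaled CPM was 27.4, 28.6 and 27.6 in vehicle and 30.9, 29.9 and 32.2 with TWEAK, so that the samples did not overlap, a log2 fold change of 0.15 ± 0.046 (SE, n = 3; adjusted p = 0.0158). The count of called members was 0 without vehicle replicate 1 and 2 without vehicle replicate 2 or 3, TWEAK replicate 1 or NIK SMI1 replicate 3. The call of Ndufb6 was lost without vehicle replicate 1 (adjusted p = 0.0531), vehicle replicate 3 (0.0559) or TWEAK replicate 3 (0.0924).

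How small a change could have been missed is given by the intervals. At 6 h the 95% interval of the TWEAK fold change lay within 1.2-fold in either direction for 47 of 54 members, against 46.4% of the genes tested, and within 1.5-fold for 53, the exception being Ndufb4. These shares were not matched on level. A mean of at least 10 CPM was reached by 48 of 54 members and by 9655 of 15521 genes. Core subunit Ndufs1, which carries iron-sulfur clusters of the electron path, had a fold of 0.943 (0.891 to 0.998), and Ndufv1, the flavin-binding subunit that accepts electrons from NADH, 1.06 (1.01 to 1.11). For complex III, Uqcrc1 had a fold of 0.962 (0.920 to 1.01), Uqcrc2 of 1.04 (0.988 to 1.09) and Uqcrfs1 of 1.04 (0.977 to 1.12). Ndufa4 stood at 1.01 (0.949 to 1.07) and the assembly factor Ndufaf1 at 0.908 (0.838 to 0.985). None of these 7 passed the adjusted test.

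**Figure D2:**
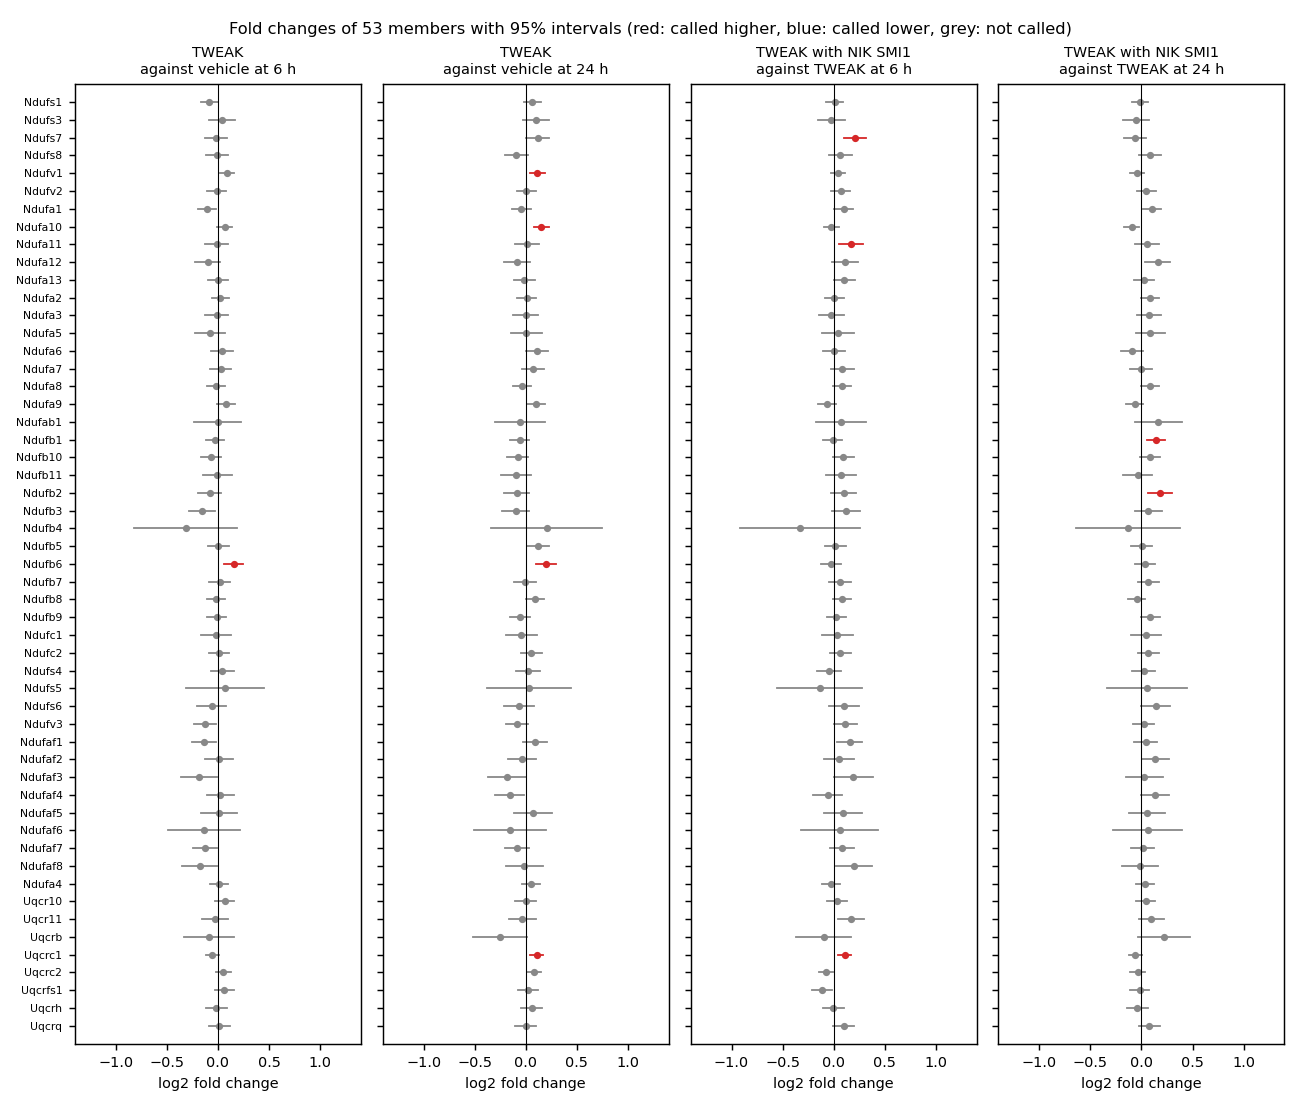
Log2 fold change (point) and 95% interval (line) of 53 tested members in 4 comparisons, from edgeR, ordered by role from complex I core subunits at the top to complex III at the bottom. Red marks members called higher, and none of those drawn was called lower in these comparisons. Most intervals lie close to 0, and the widest belong to Ndufb4, Ndufs5 and Ndufaf6, which had few reads.

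TWEAK at 24 h raised 5 of 54 members by small amounts and lowered 0 (9 higher and 1 lower with unadjusted p under 0.05, and 5 and 0 called by DESeq2), while 18.3% of all tested genes were called higher and 20.7% lower. Among the members called were Ndufv1, the flavin-binding core subunit of complex I, the accessory subunits Ndufa10 and Ndufb6, and Uqcrc1 of complex III. Their folds lay between 1.08 (1.03 to 1.13) for Uqcrc1 and 1.15 (1.07 to 1.23) for Ndufb6.

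Ndufb6 was 28.1, 26.8 and 28.5 TMM-scaled CPM in vehicle and 32.5, 31.8 and 31.7 with TWEAK at 24 h, a log2 fold change of 0.20 ± 0.048 (SE; edgeR adjusted p = 0.00157). It was thus called at both times. Ndufa10 was 124.5, 122 and 126 in vehicle and 132, 142 and 139 with TWEAK, a log2 fold change of 0.15 ± 0.037 (edgeR adjusted p = 0.00156). Neither gene had overlap between TWEAK and vehicle. Ndufv1 went from 129, 132 and 133 to 145, 143 and 138 TMM-scaled CPM (log2 fold change 0.11 ± 0.034, edgeR adjusted p = 0.00882). Uqcrc1 went from 182, 189 and 183 to 200.3, 199 and 197 (log2 fold change 0.11 ± 0.032, edgeR adjusted p = 0.00913). In these genes, too, the groups did not overlap.

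The 24 h calls were not equally firm. Ndufb6 and Ndufa10 were called in each of 18 fits that left out 1 library and without TWEAK replicates 1 and 3. Ndufv1 lost its call without vehicle replicate 1 (adjusted p = 0.0541). Without TWEAK replicates 1 and 3, where TWEAK replicate 2 stands alone, 3 members were called, and the log2 fold changes were 0.12 for Ndufv1 (adjusted p = 0.0637) and 0.11 for Uqcrc1 (0.0893). Without vehicle replicate 2 or vehicle replicate 3, 8 members were called. When the 24 h samples were fitted alone 9 were called, all higher. Tested against a change of 1.2-fold instead of against no change, 0 members were called in this and in each of the other comparisons, while 13.7% of all tested genes passed that test here.

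The remaining fixed members had narrow intervals at 24 h. The fold was 1.05 (0.986 to 1.11) for Ndufs1, 1.06 (1.01 to 1.11) for Uqcrc2, 1.02 (0.949 to 1.09) for Uqcrfs1, 1.04 (0.974 to 1.10) for Ndufa4 and 1.06 (0.978 to 1.16) for Ndufaf1, none of them called. For 45 of the 54 members, against 37.5% of the genes tested and again not matched on level, the interval was within 1.2-fold. Their median on the log2 scale was 0.001, with 27 above and 27 below 0.

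Reads of a gene and of an overlapping gene on the other strand could not be told apart if strand was not used in counting, which the sources used here do not state. In the GENCODE annotation (GRCm38) 39.0% of the exonic bases of Ndufb6 overlap Smim27 on the opposite strand. Smim27 was at 1.71 ± 0.182 CPM in vehicle and 2.04 ± 0.328 with TWEAK at 24 h. The difference was 0.329 CPM for Smim27 and 4.20 CPM for Ndufb6. How reads in the shared bases were assigned is not known, so the Smim27 count does not measure its part in Ndufb6. That part was not tested. For Ndufb1 the share was 12.7%, with Cpsf2, at 153.4 CPM (library totals) with TWEAK at 24 h and 153.8 with NIK SMI1. For Ndufa11 it was 6.41%, with Vmac, at 27.15 CPM with TWEAK at 6 h and 30.89 with NIK SMI1. Vmac was not called there (log2 fold change 0.19, edgeR adjusted p = 0.0583).

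**Figure D3:**
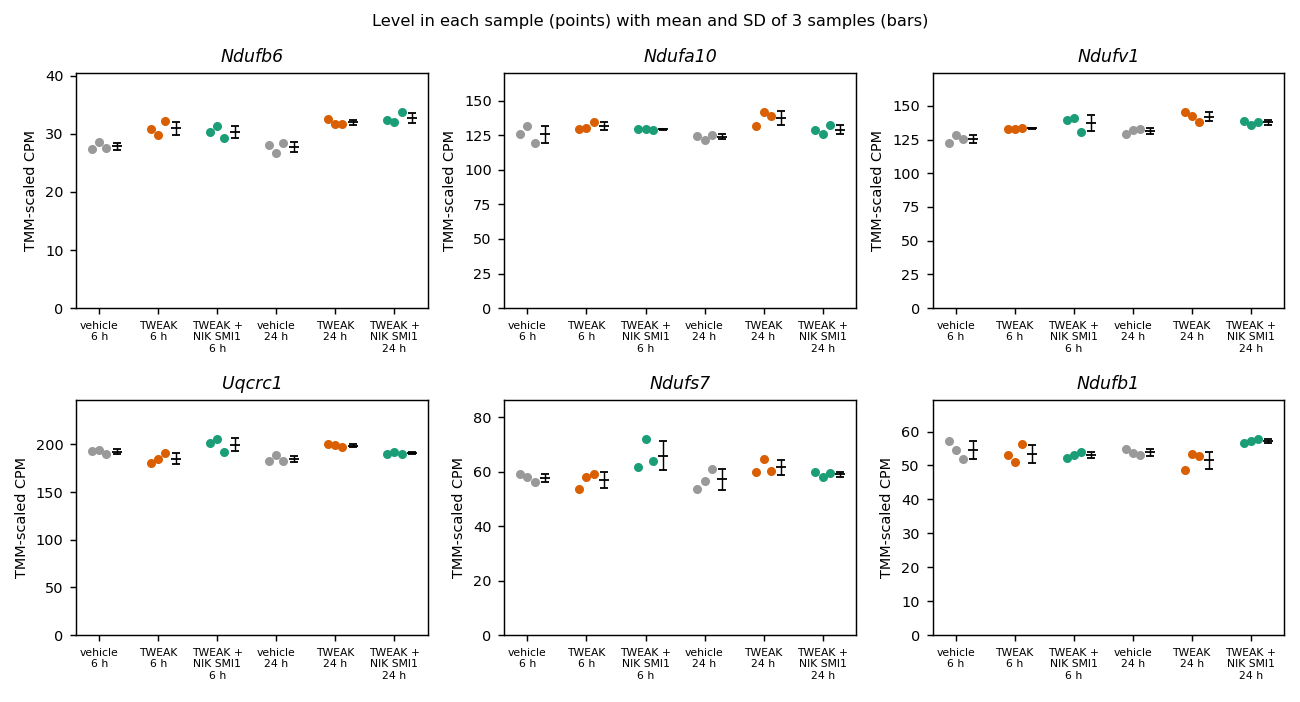
TMM-scaled CPM of 6 members in each of the 18 samples (points), with the mean and SD of 3 samples beside them, axes starting at 0. Ndufb6 is higher in the TWEAK samples at 24 h (31.7 to 32.5) than in vehicle (26.8 to 28.5), and Ndufs7 is highest in the NIK SMI1 samples at 6 h (61.9 to 71.9), where they overlap those of TWEAK at 24 h.

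Addition of NIK SMI1 to TWEAK for 6 h was followed by higher levels of 3 members and lower levels of 0 (10 and 2 with unadjusted p under 0.05, and 3 and 0 by DESeq2), against 5.34% of all tested genes called higher and 5.70% lower. Ndufs7, a core subunit that carries the last iron-sulfur cluster before ubiquinone, was 53.5, 58.0 and 59.4 TMM-scaled CPM with TWEAK and 61.9, 71.9 and 64.1 after NIK SMI1 was added. Its samples did not overlap (log2 fold change 0.21 ± 0.054, SE, n = 3, edgeR adjusted p = 0.0104). Uqcrc1 was 180, 185 and 191 with TWEAK and 201, 205 and 192 with the inhibitor (log2 fold change 0.11 ± 0.032, edgeR adjusted p = 0.0247). Ndufa11, a membrane-arm subunit, was 50.7, 54.9 and 57.3 against 61.2, 66.6 and 55.2, and its samples overlapped (log2 fold change 0.17 ± 0.057, edgeR adjusted p = 0.0472).

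These calls depended on single libraries. Without TWEAK replicate 1 or without NIK SMI1 replicate 2, 0 members were called. Without TWEAK replicate 2 there was 1 and without NIK SMI1 replicate 3 there were 6, all higher. The adjusted p of Ndufs7 was 0.0910 without TWEAK replicate 1 and 0.136 without NIK SMI1 replicate 2. That of Uqcrc1 was 0.0743 to 0.162 without TWEAK replicate 1, TWEAK replicate 2, NIK SMI1 replicate 1 or NIK SMI1 replicate 2, and the call of Ndufa11 was lost in 17 of 27 alternative fits. Over the 54 members the median was 0.061 on the log2 scale (all genes 0.003), with 39 above and 15 below 0. These signs come from the same libraries, are not independent and were not tested.

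At 24 h NIK SMI1 was followed by higher levels of 2 members and lower levels of 1, against 10.2% of all tested genes called higher and 8.29% lower. The members called higher were Ndufb1 and Ndufb2, small accessory subunits of the membrane arm. Ndufb1 was 48.7, 53.2 and 52.7 TMM-scaled CPM with TWEAK and 56.5, 57.2 and 57.7 with NIK SMI1 (log2 fold change 0.14 ± 0.045, edgeR adjusted p = 0.0245). Ndufb2 was 27.3, 25.7 and 26.7 against 30.3, 29.1 and 30.5 (log2 fold change 0.18 ± 0.058, edgeR adjusted p = 0.0310). In both genes the groups did not overlap. Ndufb1 lost its call without TWEAK replicate 1 or NIK SMI1 replicates 2 or 3 (adjusted p = 0.0640 to 0.137), and Ndufb2 without TWEAK replicates 2 or 3 or NIK SMI1 replicates 1 or 3 (0.0684 to 0.142). Without TWEAK replicate 3 or NIK SMI1 replicate 2, 1 member was called, and without NIK SMI1 replicate 3 there was 0. With TWEAK replicate 2 as the only TWEAK library at 24 h there was also 0, with log2 fold changes of 0.10 for Ndufb1 (adjusted p = 0.386) and 0.22 for Ndufb2 (0.101).

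Among the members that TWEAK raised at 24 h, Ndufv1 stood at a fold of 0.970 (0.925 to 1.02) against TWEAK and Uqcrc1 at 0.959 (0.917 to 1.003), neither called. Ndufb6 remained high with NIK SMI1, at 32.4, 32.1 and 33.7 TMM-scaled CPM. Ndufa10 with NIK SMI1 was called different neither from TWEAK nor from vehicle. The TWEAK group is shared by the comparisons with vehicle and with NIK SMI1, so a chance deviation of that group would move them in opposite directions.

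TWEAK with NIK SMI1 was also compared with vehicle. At 6 h, 2 members were called higher and 0 lower (8 and 1 with unadjusted p under 0.05, and 2 and 0 by DESeq2), against 7.23% and 6.70% of all tested genes. These were Ndufv1 (log2 fold change 0.13 ± 0.034, edgeR adjusted p = 0.00909) and Ndufs7 (0.19 ± 0.054, adjusted p = 0.0163). Ndufv1 was lost without NIK SMI1 replicate 1 (0.0524) or 2 (0.0622), and Ndufs7 without vehicle replicate 3 (0.0654) or NIK SMI1 replicate 2 (0.177). Between 0 members (without NIK SMI1 replicate 2) and 4 (without NIK SMI1 replicate 3) were called, with 1 without vehicle replicate 3 or NIK SMI1 replicate 1. At 24 h, 1 member was called higher and 0 lower (5 and 0 with unadjusted p under 0.05, and 1 and 0 by DESeq2), against 8.07% and 9.83% of all tested genes. This was Ndufb6, with a log2 fold change of 0.23 ± 0.048 (edgeR adjusted p = 0.000644), which was called in each of the 18 fits without 1 library. Without vehicle replicate 3, 3 members were called. The groups at 24 h also differed in islet transcripts, at 11.57 to 15.71 CPM in vehicle and at most 0.065 CPM with NIK SMI1. No fit without 1 library removes this difference, and it cannot be told apart from the effect of the agents. At 24 h 44 members were above and 10 below 0, with a median of 0.055 on the log2 scale, against 0.004 for the genes tested. The members were read in the same libraries, so their signs are not independent, and this count was not tested.

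**Figure D4:**
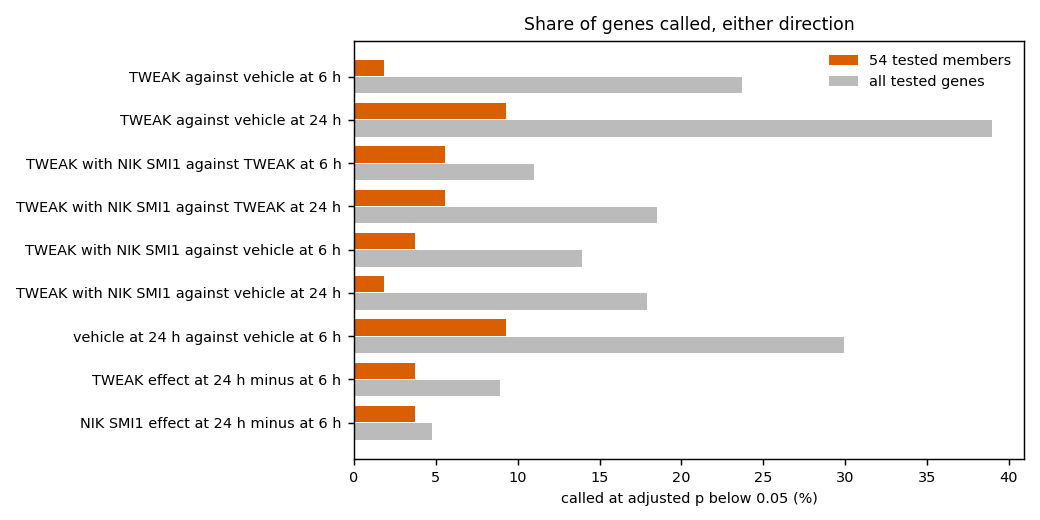
Percent of genes called at an edgeR adjusted p under 0.05, in either direction, for the 54 tested members (orange) and all 15521 tested genes (grey) in 9 comparisons. The member share is the lower one in each comparison, as at 24 h with TWEAK, where 5 of 54 members and 39.0% of all genes were called.

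The change of an effect with time was tested as an interaction. For TWEAK, 2 members were called higher at 24 h than at 6 h and 0 lower (4 and 0 with unadjusted p under 0.05, and 2 and 0 by DESeq2), against 3.24% and 5.67% of all tested genes. Uqcrc1 was among them. For NIK SMI1 against TWEAK, 0 were called higher and 2 lower (1 and 4 with unadjusted p under 0.05, and 0 and 2 by DESeq2), against 3.11% and 1.62%, and these were Uqcrc1 and Ndufs7. Their values are given with the results that differed between times.

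In vehicle alone, from 6 h to 24 h, 4 members were called higher and 1 lower, against 15.5% and 14.4% of all tested genes. The assembly factor Ndufaf2 rose from 13.4, 12.9 and 12.5 to 16.1, 14.5 and 14.99 TMM-scaled CPM, with no overlap (log2 fold change 0.25 ± 0.069, edgeR adjusted p = 0.00734). Uqcr10 of complex III rose by 0.13 ± 0.048 on the log2 scale (adjusted p = 0.0360), the accessory subunit Ndufa5 by 0.20 ± 0.074 (0.0396) and the methyltransferase-like assembly factor Ndufaf7 by 0.15 ± 0.057 (0.0482). Ndufa1, a small membrane-arm subunit, fell by 0.12 ± 0.044 (adjusted p = 0.0385).

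These time calls changed with scaling and with single libraries. With library totals in place of TMM, 10 members were called higher and 0 lower, and DESeq2 called 1 and 1. Without vehicle 24 h replicate 1 there were 0 calls, without vehicle 24 h replicate 3 there was 1, without vehicle 6 h replicate 2 there were 2, and without vehicle 6 h replicate 3 or vehicle 24 h replicate 2 there were 3. Ndufaf2 lost its call without vehicle 24 h replicate 1 (adjusted p = 0.0820).

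The other 4 time calls were less firm. Uqcr10 lost its call in 8 of 26 alternative fits, and without vehicle 6 h replicate 3 its log2 fold change was 0.07 (adjusted p = 0.299). Ndufa5 lost its call in 9 of 26, with 0.15 (0.191) without that library. Ndufaf7, at 29.1, 28.7 and 27.2 TMM-scaled CPM at 6 h and 31.4, 28.9 and 33.7 at 24 h, overlapped between the times and lost its call in 19 of 26, with 0.10 (0.245) without vehicle 24 h replicate 3. Ndufa1 lost its call in 10 of 26, and with library totals its log2 fold change was -0.06 (adjusted p = 0.368).

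The complex I and III genes of mitochondrial DNA were lower after the same interval. Of the 8 listed, 6 passed the filter (mt-Nd3 and mt-Nd4l did not), and all 6 were lower in vehicle at 24 h than at 6 h. Their summed TMM-scaled CPM was 6223, 7276 and 7633 in vehicle at 6 h and 4980, 4599 and 4530 at 24 h, with no overlap. mt-Cytb, the cytochrome b of complex III, fell from 2368 ± 228 to 1452 ± 92.7 CPM (SD, n = 3), a log2 fold change of -0.71 ± 0.11 (SE; edgeR adjusted p = 8.698e-06). mt-Nd5, a proton-pumping subunit of complex I, fell from 908 ± 64.4 to 586 ± 40.9 CPM (log2 fold change -0.63 ± 0.095, edgeR adjusted p = 7.89e-06).

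The median log2 fold change of the 6 mitochondrial genes was -0.62 (-0.71 to -0.42), against -0.001 for the 54 nuclear members. It was -0.56 with library totals in place of TMM and between -0.68 and -0.58 in the 18 fits without 1 library, and all 6 were called lower in each of these fits and by DESeq2. Tested against a change of 1.2-fold, 5 of 6 were called. In a bulk sample, less mitochondrial RNA per cell and fewer cells rich in it cannot be told apart.

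**Figure D5:**
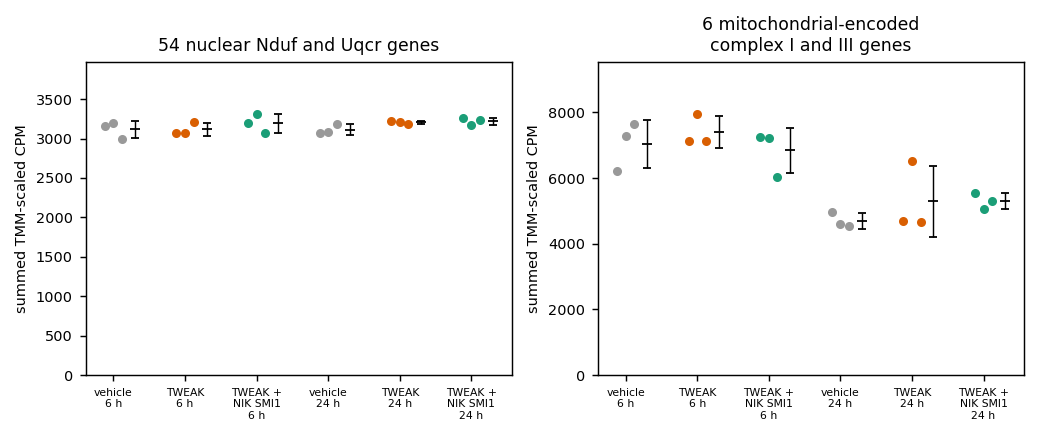
Summed TMM-scaled CPM in each sample (points), with the mean and SD of 3 samples beside them, for the 54 nuclear members (left) and the 6 mitochondrial-encoded complex I and III genes (right). The left panel stays between 2989 and 3312, while in the right panel vehicle falls from 6223 to 7633 at 6 h to 4530 to 4980 at 24 h, and 1 TWEAK sample at 24 h stands at 6529.

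With TWEAK at 6 h, 0 of the 6 mitochondrial genes were called by edgeR or DESeq2 and 0 had an unadjusted p under 0.05. At 24 h the sums were 4689, 6529 and 4655 with TWEAK and 5544, 5068 and 5294 with NIK SMI1. TWEAK replicate 2 thus stood apart from the other TWEAK libraries, and it is also the TWEAK library without islet transcripts. With it as the only TWEAK library at 24 h, the log2 fold changes of the 6 genes against vehicle were 0.27 to 0.64 (median 0.41). The NIK SMI1 libraries, with at most 0.065 CPM of islet transcripts, all lay above the vehicle sums of 4980, 4599 and 4530. A link of these levels with islet transcripts was not tested. mt-Cytb was called higher with TWEAK at 24 h (log2 fold change 0.27 ± 0.11, edgeR adjusted p = 0.0470), but its values were 1458, 2260 and 1528 CPM. Without TWEAK replicate 2 the log2 fold change was 0.04 (adjusted p = 0.740), without vehicle replicate 2 or 3 the adjusted p was 0.132 or 0.140, and DESeq2 gave 0.168. It was also 0.0523 to 0.0549 without TWEAK 6 h replicate 1 or NIK SMI1 24 h replicate 2 or 3. With the 24 h samples fitted alone, 3 of the 6 genes were called higher. The nuclear members of TWEAK replicate 2, in contrast, summed to 3211 CPM, between the 3190 and 3226 of its group.

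Other genes of the respiratory chain were read from lists. Complex II had the largest change among them. Sdhaf1, an assembly factor for its iron-sulfur subunit, was 11.7, 13.7 and 12.5 TMM-scaled CPM in vehicle at 6 h and 22.4, 20.9 and 24.7 with TWEAK, and at 24 h 11.9, 14.0 and 11.9 against 23.5, 23.5 and 24.1. The log2 fold changes were 0.84 and 0.92. With NIK SMI1 it was 16.5, 17.7 and 16.9 at 6 h and 20.2, 19.0 and 17.4 at 24 h, between vehicle and TWEAK, and lower than TWEAK by a log2 fold change of -0.41 and -0.33. All 4 contrasts were called (edgeR adjusted p = 6.916e-10, 1.806e-10, 0.00033 and 0.00137, in that order). The subunits themselves and the other listed factors gave 1 call lower of 7 at 6 h and 2 lower of 7 at 24 h. In the annotation 69.6% of the exonic bases of Sdhaf1 overlap a transcript on the opposite strand, so strand bears on this value.

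The further lists are read against the 11.7% of all tested genes called higher and 12.0% lower with TWEAK at 6 h, and 18.3% and 20.7% at 24 h. Of 7 other complex III genes (Cyc1 and assembly factors) 1 was called lower at 6 h, Uqcc3 (log2 fold change -0.20), and 0 of 7 were called at 24 h (1 with unadjusted p under 0.05, and 0 by DESeq2). Of 9 tested complex I assembly factors outside the Nduf names 0 were called at either time (0 at 6 h, and 1 higher and 1 lower at 24 h, with unadjusted p under 0.05, and 0 by DESeq2), while in vehicle over time 3 rose, among them Foxred1 (0.25) and Nubpl (0.30). Of 13 tested complex IV genes 2 fell with TWEAK at 24 h, the minor isoforms Cox7a1 (log2 fold change -0.89, from 1.72 to 0.873 CPM) and Cox6b2 (-0.79, from 2.19 to 1.25 CPM). Of 16 complex V genes 1 rose at 24 h, Atp5b (0.09). Among 15 genes of the TCA cycle and cytochrome c, 4 rose and 2 fell at 24 h, including Idh3g (0.25) and Ogdh (-0.16).

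The same shares of all genes stand beside the regulators and comparison lists, with 39.0% called in either direction at 24 h. Of 10 tested regulators of mitochondrial biogenesis, 2 rose with TWEAK at 6 h, Gabpb1 (log2 fold change 0.30), a subunit of the ETS factor GABP, and the coactivator Pprc1 (0.15). At 24 h 2 rose and 2 fell, with Gabpb1 at 0.25 and the nuclear receptor Esrra at -0.14. Of 10 hypoxia and glycolysis genes 1 rose and 4 fell at 24 h, with Vegfa at -0.29 and Hk2 at 0.18. Of 73 cytosolic ribosomal protein genes 2 were called higher and 0 lower at 6 h, and 10 higher and 10 lower at 24 h. They were listed as short abundant transcripts and were not matched to the members in length or level.

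Promoter sequence was searched for letters bound by known factors. RefSeq (GRCm38.p6) gave a promoter of 250 bases before to 50 after the start for 47 of 57 members. The NRF1 motif CGCATGCGC, read on both strands, stood in 6 of 47 (12.8%), against 3.80% of 11228 tested genes with a promoter and 1.95% of 27025 genes. With any base in the fourth place (CGCNTGCGC, which includes the former) it stood in 12 (25.5%), against 14.4% of tested genes. The YY1 motif AAGATGGCG stood in 6 (12.8% against 3.30%), the ETS motif CCGGAAGT in 3 (6.38% against 8.76%), and the ERR motif TCAAGGTCA in 0 (against 0.338%). An NF-κB motif, GGGACTTTC or GGAATTTCC, stood in 1 of 47 (2.13% against 0.819%), in the promoter of Ndufv3, a small flavoprotein-fraction subunit. A match is a description of letters and not of binding.

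The windows below show the NRF1 letters CGCATGCGC in front of 3 members and the NF-κB letters of Ndufv3. The Ndufa8 window also opens with a match to the wider form CGCNTGCGC, left in lower case. All windows are on the strand of their gene, with the match to CGCATGCGC (on either strand) or to the NF-κB letters in capitals. They lie at chr2:36049339-36049367 (minus strand, Ndufa8), chr4:24897950-24897998 (plus strand, Ndufaf4), chr17:56717682-56717730 (plus strand, Ndufa11) and chr17:31519960-31520008 (plus strand, Ndufv3) of GRCm38.p6, all upstream of the annotated start.
Ndufa8: cgcttgcgcgtcgctggagaCGCATGCGC
Ndufaf4: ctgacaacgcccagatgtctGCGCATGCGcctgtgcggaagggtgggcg
Ndufa11: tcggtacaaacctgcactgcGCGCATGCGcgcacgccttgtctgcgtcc
Ndufv3: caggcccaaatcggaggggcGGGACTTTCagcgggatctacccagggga
Ndufv3, the member with NF-κB letters, was 38.0, 39.4 and 35.4 TMM-scaled CPM in vehicle and 34.2, 33.9 and 35.1 with TWEAK at 6 h. At 24 h it was 39.8, 41.4 and 40.2 in vehicle and 38.9, 36.9 and 38.7 with TWEAK. Its fold with TWEAK was 0.915 (0.850 to 0.986) at 6 h and 0.943 (0.875 to 1.02) at 24 h, with no call at either time (edgeR adjusted p = 0.0785 and 0.230).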

How the data were processed

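Gene expression was measured by RNASeq of polyadenylated RNA in 18 samples. Per the study's methods HTSeqGenie, which calls the aligner GSNAP, was run by the authors against NCBI build 37 of mouse, and the deposited counts are unnormalized numbers of uniquely aligned reads in the exons of a gene. The deposited files also hold RPKM, scaled by the authors by exonic length and library total, which entered no test. The submitters' processing notes name DESeq2. The labels and the methods differ on read length and instrument, and strand use is not given in the sources used here.

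Genes were named by Entrez identifier from RefSeq (31049 of 36528 matched). Members and lists were chosen with earlier results of these data known. Counts were fitted as 6 groups in edgeR 4.0.16 (R 4.3.3; TMM, estimateDisp, glmQLFit, glmQLFTest) for 15521 genes with more than 10 reads in at least 4 samples, adjusted by Benjamini-Hochberg. The common biological coefficient of variation was 0.0404. SE was the absolute log2 fold change over the root of F, and 95% intervals used the fit's degrees of freedom. The fit was tested on simulated data. Full statistics were given for up to 4 called members per direction with the lowest adjusted p and for Ndufs1, Ndufv1, Uqcrc1, Uqcrc2, Uqcrfs1, Ndufa4, Ndufa4l2 and Ndufaf1. Results of 1 member, which is kept in the counts and sums, are not reported here. From each other list at most 2 called genes per comparison, those with the lowest adjusted p, were named. DESeq2 1.42.0, other scalings and filters, a 1.2-fold test, a length correction, each time alone and fits without libraries were alternatives. Replicate libraries differed by more than sampling noise (chi-square per degree of freedom 2.20 to 9.99), so none was counted as a duplicate. Depth limits precision for low genes, and intervals cover the spread between these samples.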

Additional observations from a re-analysis of the deposited data

Results flagged for a closer look

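In 3 cases given here the effect on a member differed between 6 h and 24 h by the interaction test of edgeR (adjusted over 15521 genes). The TWEAK effect on Uqcrc1 was 0.162 higher on the log2 scale at 24 h than at 6 h (adjusted p = 0.0201), from -0.06 at 6 h to 0.11 at 24 h. The NIK SMI1 effect, against TWEAK, on Uqcrc1 was -0.169 at 24 h relative to 6 h (adjusted p = 0.0280), from 0.11 to -0.06, and that on Ndufs7 was -0.269 (adjusted p = 0.0376). The results for Uqcrc1 share the TWEAK samples and are not independent.

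None of the 3 held in every fit without 1 library. Uqcrc1 with TWEAK was lost without TWEAK 6 h replicate 1 (adjusted p = 0.0766) or vehicle 24 h replicate 1 (0.0622). Uqcrc1 with NIK SMI1 was lost without replicates 1 or 2 of TWEAK 6 h, NIK SMI1 6 h or TWEAK 24 h, or replicates 2 or 3 of NIK SMI1 24 h (0.0503 to 0.0983). Ndufs7 was lost without TWEAK 6 h replicates 1 or 2, NIK SMI1 6 h replicate 2, TWEAK 24 h replicate 2 or NIK SMI1 24 h replicates 2 or 3 (0.0562 to 0.160). Without TWEAK 24 h replicates 1 and 3, which hold islet transcripts, 1 TWEAK library is left at 24 h and is assumed to vary like the other groups. None of the 3 was then called, with differences of 0.16 (adjusted p = 0.106) for Uqcrc1 with TWEAK, -0.17 (0.139) for Uqcrc1 with NIK SMI1 and -0.34 (0.0574) for Ndufs7.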

How the results depend on the processing

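Each of the 24 calls of a member kept its direction in all alternative fits (639 fits, with 491 keeping the call and 148 losing it). Tested against a 1.2-fold change, 0 members were called in each of the 9 comparisons. Members called with TWEAK at 6 h were 1 as reported, 3 with library totals (1 higher, 2 lower), 0 without the filter and 3 with the length trend removed. With TWEAK at 24 h they were 9 with each time fitted alone and 3 without the TWEAK libraries that hold islet transcripts (1 TWEAK library is then left at 24 h), against 5. For NIK SMI1 against TWEAK they were 1 at 6 h and 5 at 24 h with each time alone and 0 at 24 h without those libraries, against 3 and 3. For NIK SMI1 against vehicle at 24 h they were 2 with the time alone, against 1. For vehicle over time they were 2 with DESeq2, 2 with its size factors in edgeR, 10 with library totals, 1 without the filter and 3 without those libraries, against 5. For the change of the TWEAK effect and of the NIK SMI1 effect with time they were 1 and 1 without the filter and 0 and 0 without those libraries, against 2 and 2. The cause of these differences was not tested. In the 18 fits without 1 library the count ran from 0 to 2 and 4 to 8 for TWEAK at 6 h and 24 h, 0 to 6 and 0 to 4 for NIK SMI1 against TWEAK, 0 to 4 and 1 to 3 for NIK SMI1 against vehicle, 0 to 5 for vehicle over time, and 0 to 2 for each change with time. The summed level in vehicle at 24 h over 6 h was 1.05 in CPM and 1.0 in TMM-scaled CPM, where TMM factors were 0.964 to 0.987 at 6 h and 1.02 to 1.03 at 24 h. The alternative fits of the mitochondrial-encoded genes were chosen after seeing the data. No paired analysis was possible because the labels carry no replicate numbers. Depth limits the members with few reads, above all Ndufb4, Ndufs5 and Ndufaf6.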
